A study of Mus musculus with 8 samples.

Results

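Replication licensing genes were followed across leukemias of 8 transgenic mice. The set held the genes of the 6 subunits of the MCM helicase (Mcm2 to Mcm7, for the proteins MCM2, MCM3, MCM4, MCM5, MCM6 and MCM7), Mcm10, the loading factors Cdc6 and Cdt1, and the sliding clamp gene Pcna. Members were chosen by gene symbol. Of these 10 genes, 9 were found among the 16419 genes of the gene table, and Pcna was read from its probe sets only. The 10 genes together were annotated to 213 of 1236087 probe sets.

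Licensing prepares DNA for replication in the G1 phase of the cell cycle. The origin recognition complex, Cdc6 and Cdt1 load the MCM helicase onto DNA as a double ring. Mcm10 helps to activate the ring in S phase, and PCNA then encircles DNA as the clamp that holds replicative polymerases. Most of these genes are known E2F targets, transcribed as cells leave quiescence. Chronic lymphocytic leukemia cells in blood are mostly out of cycle, and their MCM proteins are used as markers of the dividing minority.

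The ROR1xTCL1 group held leukemia cells of 4 mice that carried a ROR1 transgene, encoding a surface receptor for Wnt5a, together with the TCL1 transgene. The TCL1 group held leukemia cells of 4 mice with TCL1 alone, so TCL1 was shared by all 8. The TCL1 transgene is of the Eµ kind, driven in B cells by an immunoglobulin heavy chain enhancer, and is used as a mouse model of chronic lymphocytic leukemia. The promoter and species of the ROR1 transgene, and the strain, age and sex of the mice, are not given in the sources used here. RNA of each mouse was hybridised once to an Affymetrix Mouse Exon 1.0 ST array. Columns of the gene table name a genotype and not a sample, so each group's arrays were lettered a to d. The letters carry no pairing, and the numbered replicates of the probe set table were not matched to them.

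The B lineage genes Cd79a and Pax5 read high on every array, and some arrays also carried markers of other cells, given below. Cd79a, a signalling chain of the B cell receptor, lay between 11.54 and 11.88 on the log2 scale, and Pax5, a transcription factor of the B lineage, between 9.31 and 10.03. Ror1 averaged 4.41 ± 0.34 over ROR1xTCL1 arrays and 3.77 ± 0.17 over TCL1 arrays (SD, n = 4), without overlap, and missed the threshold over all genes (limma adjusted p = 0.9995). The median over genes was 5.03 to 5.09, depending on the array. The Y-linked gene Ddx3y was at 7.70, 8.15 and 7.29 on ROR1xTCL1 arrays c and d and TCL1 array c, and at 2.42 to 2.88 on the other 5, so sex was not balanced. The part of sex in the results below was not tested.

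The promoter stretches that hold E2F and CCAAT words are shown first, because the question asked of the values is whether these genes moved together. RefSeq promoter windows (mouse build GRCm38.p6, 250 bases before to 50 after each annotated start) were matched for 9 of the 10 genes. Matches to the E2F words TTTCCCGC, TTTCGCGC, TTTGCCGC and TTTGGCGC and to CCAAT, the NF-Y word, were searched on both strands. In the stretches below capitals mark the matches that lie whole within a stretch. Sequences run 5′ to 3′ on the strand of the gene, and positions count from the annotated start. A second E2F word of Mcm3, at positions 39 to 46, runs past the end of its stretch and is not in capitals.
Mcm5, chr8:75109339-75109398, plus strand, positions -170 to -111: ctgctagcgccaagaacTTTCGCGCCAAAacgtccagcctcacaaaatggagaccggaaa
Mcm6, chr1:128359736-128359825, minus strand, positions -120 to -31: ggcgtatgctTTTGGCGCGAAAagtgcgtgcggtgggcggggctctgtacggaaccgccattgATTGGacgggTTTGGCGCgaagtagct
Mcm7, chr5:138172004-138172063, minus strand, positions -180 to -121: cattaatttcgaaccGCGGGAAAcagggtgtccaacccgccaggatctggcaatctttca
Mcm7, chr5:138171848-138171877, minus strand, positions 7 to 36: ggtgacgacgTTTCGCGCCAATttcggttg
Cdc6, chr11:98907996-98908045, plus strand, positions -155 to -106: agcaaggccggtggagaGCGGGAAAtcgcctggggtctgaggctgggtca
Mcm3, chr1:20820271-20820300, minus strand, positions 13 to 42: ttccgtgGCGGGAAAacttgggaagttttg
Cdt1, chr8:122568031-122568060, plus strand, positions 17 to 46: ccgcgggaactaccttTTTGGCGCcatggc

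In Mcm5 and Mcm6 E2F words on opposite strands overlapped in a 12-base run, and in Mcm7 an E2F word shared 1 base with a CCAAT word. An E2F word was found in 6 of the 9 genes, namely Mcm3, Mcm5, Mcm6, Mcm7, Cdc6 and Cdt1. It was found in 2.26% of all 32851 windows and in 3.70% of the 12824 measured genes with a window. CCAAT was found in 7 of the 9 genes, all but Cdc6 and Cdt1, against 42.6% of measured genes. Mcm2, Mcm10 and Pcna held CCAAT without an E2F word, as in these 3 stretches.
Mcm2, chr6:88898911-88898970, minus strand, positions -190 to -131: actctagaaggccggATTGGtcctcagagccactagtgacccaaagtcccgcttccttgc
Mcm10, chr2:5012852-5012911, minus strand, positions -120 to -61: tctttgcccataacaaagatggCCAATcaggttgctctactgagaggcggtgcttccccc
Pcna, chr2:132253231-132253290, minus strand, positions -110 to -51: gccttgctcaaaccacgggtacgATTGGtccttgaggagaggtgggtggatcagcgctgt
The cell cycle word TTTGAA was found in Mcm2 alone (17.9% of all windows), and the E-box CACGTG in 0 of 9 (7.15% of all windows). A match describes letters and does not show that a factor binds there.

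The 6 helicase subunits were high in the same leukemias whatever the genotype. All values are gene values on the log2 scale, and levels of different genes are not compared, since each rests on its own probes. Mcm2 read 7.70, 7.24, 7.11 and 7.24 on ROR1xTCL1 arrays a to d, against 7.22, 7.29, 7.65 and 6.63 on TCL1 arrays a to d. Mcm7, which with Mcm4 and Mcm6 forms a helicase core in vitro, read 8.32, 7.54, 7.30 and 7.55 in ROR1xTCL1, against 7.73, 7.55, 8.04 and 6.92 in TCL1. For both genes ROR1xTCL1 array a and TCL1 array c were highest and TCL1 array d was lowest, so the groups overlapped. Mcm7 had the widest range of the 9 genes, 1.40 log2 units or 2.63-fold between leukemias, and its SD over the 8 arrays exceeded that of 87.0% of all genes.

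Mcm3 and Mcm5 form one dimer of the ring. Mcm3 read 7.39, 7.03, 6.86 and 7.11 in ROR1xTCL1, against 6.94, 6.69, 7.33 and 6.78 in TCL1. Mcm5 read 7.54, 7.06, 7.01 and 7.39 in ROR1xTCL1, against 6.98, 6.88, 7.68 and 6.76 in TCL1. The same pair of arrays led in both genes, with TCL1 array c on top for Mcm5. Mcm4 read 7.96, 7.66, 7.49 and 7.76 in ROR1xTCL1, against 7.75, 7.49, 7.94 and 7.46 in TCL1. Mcm6 read 8.37, 7.94, 7.81 and 8.12 in ROR1xTCL1, against 8.23, 7.68, 8.25 and 7.74 in TCL1. Mcm4 had the smallest range of the 6 subunits, 1.42-fold, and for Mcm6 TCL1 array a lay only just below TCL1 array c.

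The loading and activation factors differed among themselves. Cdc6, the ATPase that recruits the helicase to origins and is lost from resting cells, read 5.35, 4.70, 4.49 and 5.09 in ROR1xTCL1, against 4.84, 4.37, 5.18 and 4.12 in TCL1. Its range of 2.34-fold was next to that of Mcm7, and it followed the helicase. Mcm10 read 6.50, 5.96, 6.27 and 6.26 in ROR1xTCL1, against 5.96, 6.02, 6.41 and 6.04 in TCL1. It was again highest on ROR1xTCL1 array a and TCL1 array c, but TCL1 array d was not its low point. Cdt1, the partner of Cdc6 that brings the ring to DNA, read 7.11, 7.03, 6.93 and 6.92 in ROR1xTCL1, against 6.85, 7.22, 7.04 and 7.16 in TCL1. Cdt1 stood apart: its top arrays were TCL1 b and d, of which TCL1 d was lowest or next to lowest for all 6 subunits, and its SD of 0.13 exceeded that of only 15.2% of genes.

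**Figure D1:**
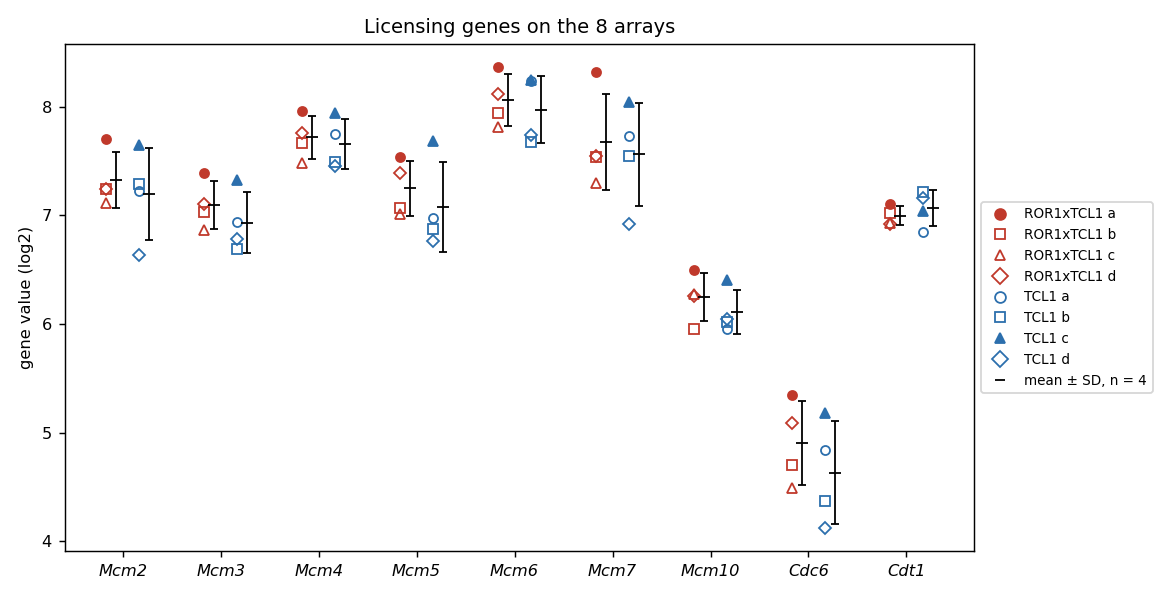
Gene values (log2, vertical axis) of the 9 genes of the gene table on the 4 ROR1xTCL1 arrays (red, left) and 4 TCL1 arrays (blue, right), with mean ± SD beside each group. The filled symbols, ROR1xTCL1 array a and TCL1 array c, are the top pair for every gene except Cdt1, whose values span 0.37 log2 units.

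ROR1xTCL1 array a and TCL1 array c were the highest pair for 8 of the 9 genes, against 3.31% of all genes. This pair was picked after the values of these genes were seen, and the 8 genes are not separate observations. The clamp gene followed less closely. Pcna, as the mean of its 15 probe sets, read 10.59, 10.51, 10.04 and 10.33 on ROR1xTCL1 replicates 1 to 4, against 10.42, 10.02, 10.29 and 10.34 on TCL1 replicates 1 to 4. Its highest sample was ROR1xTCL1 replicate 1, as for Mcm7 (8.11 by the same measure). Its next was ROR1xTCL1 replicate 2, where Mcm7 was low at 7.31. RefSeq lists Pcna pseudogenes, and whether its probes also read them was not tested. In bulk samples fewer dividing cells and less of this RNA per cell cannot be told apart.

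Genotype made no difference that passed the test for any member. The comparison asks whether leukemias with ROR1 and TCL1 differ from those with TCL1 alone. Of the 9 genes, 0 passed (limma, Benjamini-Hochberg adjusted p over all 16419 genes under 0.05), as did 0% of all genes. None of the 9 had an unadjusted p under 0.05, against 1.63% of all genes, and 0 of the 9 separated the groups without overlap, against 1.10%. The mean was above 0 in 8 of the 9, against 45.9% of all genes, with a median difference of 0.13 log2 units beside -0.01 for all genes. Since these genes move together over the arrays, the 8 are not separate observations.

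The largest difference was that of Cdc6, with a mean of 4.91 ± 0.39 over ROR1xTCL1 arrays and 4.63 ± 0.47 over TCL1 arrays (SD, n = 4). It came to 0.28 ± 0.26 (SE), with a 95% interval of 0.80- to 1.83-fold (limma adjusted p = 0.9995). Mcm5 averaged 7.25 ± 0.25 over ROR1xTCL1 arrays and 7.07 ± 0.41 over TCL1 arrays (SD), which differ by 0.18 ± 0.22 (SE). Mcm3 differed by 0.17 ± 0.17, Mcm10 by 0.14 ± 0.15, Mcm2 by 0.13 ± 0.22 and Mcm7 by 0.11 ± 0.28 (SE). Mcm6 differed by 0.09 ± 0.18, Mcm4 by 0.06 ± 0.15 and Cdt1 by -0.07 ± 0.11 (SE). Pcna, from probe sets, averaged 10.37 ± 0.25 over ROR1xTCL1 samples and 10.27 ± 0.17 over TCL1 samples (SD, n = 4), and differed by 0.10 ± 0.15 (SE, limma unadjusted p = 0.516, adjusted p = 0.9998). On that measure 0% of 22378 genes passed and 1.89% had an unadjusted p under 0.05. Over the 9 genes the 95% intervals ran from 0.70-fold to 1.83-fold, so a 2-fold difference in either direction lay outside all of them. The narrowest, that of Cdt1, ran from 0.80-fold to 1.14-fold. Without ROR1xTCL1 array a the median difference of the 9 was 0.00017, without TCL1 array d 0.0071, and without TCL1 array c 0.27.

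**Figure D2:**
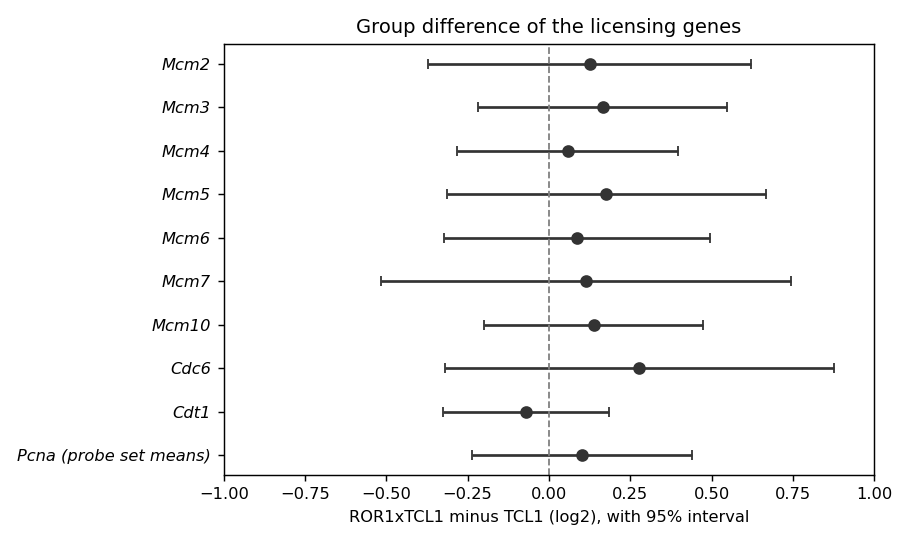
Difference between the group means (ROR1xTCL1 minus TCL1, log2, horizontal axis) with the 95% interval of the limma fit, for the 9 genes of the gene table and for Pcna from its probe sets. Every interval includes 0, and Cdt1 (-0.07) is the single estimate below 0.

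Single probe sets, which read separate exons or parts of them, showed the same picture. Of the 213 member probe sets 0 passed over all probe sets (0% of all), and 4 had an unadjusted p under 0.05 (1.88%, against 3.30% of all). These 4 were 1 of 26 for Mcm4, 1 of 21 for Mcm5 and 2 of 31 for Mcm10. The Mcm4 probe set 5205016 read 5.99, 5.80, 6.62 and 6.40 on ROR1xTCL1 replicates 1 to 4, against 5.56, 4.48, 5.73 and 5.40 on TCL1 replicates 1 to 4. The Mcm5 probe set 4485343 read 7.32, 6.50, 6.64 and 7.01 on ROR1xTCL1 replicates 1 to 4, against 5.91, 5.78, 7.03 and 5.29 on TCL1 replicates 1 to 4. The Mcm4 values did not overlap, while for Mcm5 TCL1 replicate 3 lay among the ROR1xTCL1 values. With both Mcm10 probe sets, which were dim at means of 3.93 and 1.89 in ROR1xTCL1 against 3.24 and 1.20 in TCL1, 3 of the 213 separated the groups (1.41%, against 1.97% of all). Of all 213, 166 were above 0 (77.9%, against 49.8% of all). Many of these probe sets read the same gene on the same mice, and most of the genes move together. The 166 are therefore not separate observations. The median difference of a gene's probe sets ran from -0.03 for Cdt1 to 0.31 for Cdc6.

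Across leukemias the helicase genes rose and fell together. Cdt1, which differed, was set apart after its values were seen. Over the 28 pairs of genes without it, Pearson's r over the 8 arrays had a median of 0.83, from 0.55 to 0.96, and Spearman's rho ran from 0.33 to 0.98. Of these, 21 pairs passed in r and 10 in rho (exact permutation test, 2-sided, adjusted over all 36 pairs). Each member had r of at least 0.8 with only 0.73% to 1.46% of all other genes, while Mcm4, Mcm5, Mcm7 and Cdc6 each had it with 6 of the 8 other members, Mcm3 with 5, Mcm2 and Mcm6 with 4, Mcm10 with 1 and Cdt1 with 0. With each group centred on its own mean the median of the 28 was again 0.83. The groups hold 4 arrays each, too few for a correlation within either.

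Among the closest pairs were Mcm2 with Mcm7 (r = 0.96, rho = 0.83, exact permutation p = 0.000496 and 0.0154, adjusted p = 0.0058 and 0.0503) and Mcm4 with Mcm6 (r = 0.96, rho = 0.90, exact permutation p = 0.000893 and 0.00456, adjusted p = 0.0058 and 0.0205). The Mcm3 and Mcm5 pair had r = 0.94 and rho = 0.93 (exact permutation p = 0.00062 and 0.00223, adjusted p = 0.0058 and 0.0161). Cdc6 was as close to the ring as the subunits were to one another, with r = 0.96 and rho = 0.98 to Mcm4 (exact permutation p = 0.000322 and 0.000397, adjusted p = 0.0058 and 0.0137). Without the 2 arrays farthest from the median of the first gene, r was 0.91, 0.92, 0.85 and 0.95 for these 4 pairs. Over all 28 the median r was then 0.73. Mcm10 was the loosest follower. Its 7 correlations with the ring and Cdc6 had a median of 0.63, and 0.27 without the 2 farthest arrays of each pair. Those arrays depend on the first gene of the pair and were not always the same. Leaving them out also narrows the range of values. In the means of probe sets, where each gene is read from all its probe sets, the same 7 had a median of 0.85, and 0.71 without the 2 farthest samples.

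**Figure D3:**
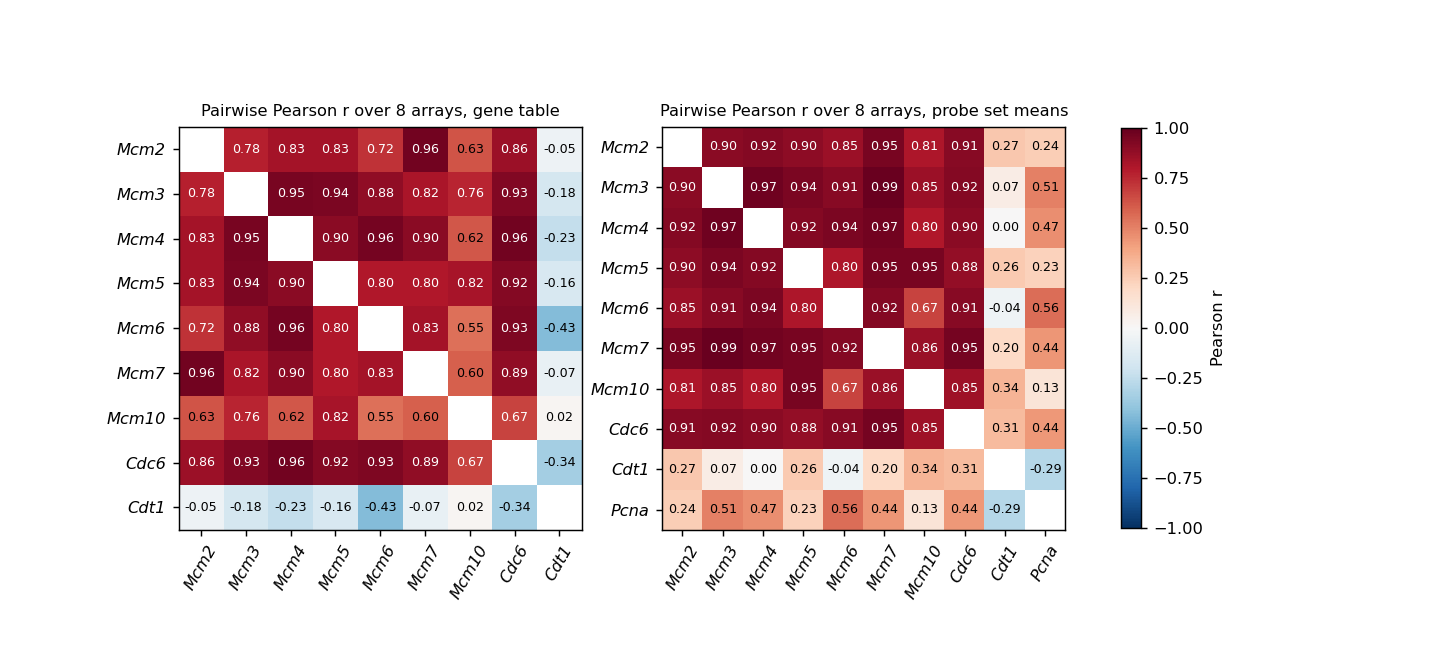
Pearson's r between each pair of genes over the 8 arrays, from the gene table (left, 9 genes) and from the means of each gene's probe sets (right, with Pcna). The ring subunits, Mcm10 and Cdc6 form a block from 0.55 to 0.96 on the left, and the row of Cdt1 lies between -0.43 and 0.02.

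Cdt1 did not follow the genes whose products it works with. Its 8 correlations ran from -0.43 with Mcm6 to 0.02 with Mcm10, with a median of -0.17, and 0 of them passed (exact permutation test, unadjusted p = 0.274 to 0.960, adjusted p = 0.340 to 0.960). With 8 arrays these values do not show an inverse relation. In the means of probe sets Cdt1 had a median r of 0.20 with the other 9 genes, from -0.29 to 0.34. There its SD of 0.09 exceeded that of only 4.8% of genes. Whether so small a spread lowers these r was not tested. Of its 13 probe sets 0 reached r of 0.8 with the mean of the other members, as was the case for the 15 of Pcna. The other 8 genes had between 4 of 31 (Mcm10) and 23 of 33 (Mcm7) that did. Cdt1 protein is known to be limited by destruction in S phase and by geminin. The geminin gene Gmnn averaged 3.52 ± 0.49 over ROR1xTCL1 arrays and 3.24 ± 0.27 over TCL1 arrays (SD, n = 4). First quartiles of the arrays were 3.52 to 3.71, so its level is not shown to exceed background.

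Pcna followed loosely. In the means of probe sets its r with the other 9 genes ran from -0.29 with Cdt1 to 0.56 with Mcm6, with a median of 0.44, and 0 of 9 passed (exact permutation test, unadjusted p = 0.165 to 0.740, adjusted p = 0.256 to 0.793). On the same measure the 28 pairs of the ring, Mcm10 and Cdc6 had a median of 0.91. Of these 27 passed in r and 26 in rho (exact permutation test, adjusted over 45 pairs). Mcm3 and Mcm7 ranked all 8 samples alike, at r = 0.99 and rho = 1.0 (exact permutation p = 2.5e-05 and 5e-05, adjusted p = 0.0011 and 0.00056), of which 2.5e-05 is the smallest the permutations of 8 samples can give.

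The subunits did not move by equal steps. Taken against the mean of the other 5 subunits on the same array, Mcm7 lay 0.34 above its own average on ROR1xTCL1 array a and 0.34 below it on TCL1 array d. Mcm4 ran the other way, from -0.17 on ROR1xTCL1 array a to 0.22 on TCL1 array d. The SD of this relative value was 0.22 for Mcm7 and 0.12 to 0.15 for the other 5. Probe sets differ in how they compress a change, so these unequal steps may not be steps in RNA.

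Other replication genes followed the same leukemias. A list score gives, for each array, how far the genes of a list lay on average above or below their own means over the 8 arrays, in log2 units. For the 9 members it was 0.39, -0.06, -0.16 and 0.08 on ROR1xTCL1 arrays a to d, against -0.03, -0.17, 0.31 and -0.35 on TCL1 arrays a to d. The helicase activation list (Cdc45, the GINS subunits, the Cdc7 kinase and others) had the highest r with it of the 18 lists, at r = 0.95 and rho = 0.93 over the 8 arrays and r = 0.91 without the 2 farthest. Replicative polymerases had r = 0.93 and rho = 0.76, nucleotide supply 0.91 and 0.95, and mitosis 0.89 and 0.93. Genes of the origin recognition complex and licensing partners had r = 0.81, and E2F and RB regulators 0.81, which was 0.44 without the 2 farthest arrays. These are descriptions of scores over correlated genes, given without a test.

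Within these lists 0 of 127 measured genes passed between genotypes, against 0% of all genes. With an unadjusted p under 0.05 there was 1 of 127, against 1.63% of all genes, so the lists gave no more than the background. That gene was Ctps, a synthase of CTP, with a mean of 5.91 ± 0.28 over ROR1xTCL1 arrays and 5.56 ± 0.05 over TCL1 arrays (SD, n = 4). It differed by 0.35 ± 0.14 (SE, limma adjusted p = 0.9995). The mean was above 0 in 87 of the 127, against 45.9% of all genes. Many of these genes move together over the arrays, so the 87 are not separate observations. The values that follow are differences of log2 means with their SE, for the 4 genes of largest difference in each list, and all missed the threshold.

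In the origin recognition and partner list 9 of 13 were above 0 (median 0.04). Beside Gmnn at 0.28 ± 0.24, the origin recognition subunits Orc5 and Orc2 were at 0.14 ± 0.17 and 0.13 ± 0.13, and Mcm9, a helicase of recombination repair, at -0.18 ± 0.18. Mcm9 had r = -0.12 with the member score, and its relative Mcm8 had r = 0.27. In helicase activation 10 of 16 were above 0 (median 0.04), with Clspn, an S phase checkpoint adaptor, at 0.32 ± 0.23, Gins1 at 0.24 ± 0.28, the Cdc7 activator Dbf4 at 0.23 ± 0.22 and Donson at -0.21 ± 0.12. Of these Clspn followed the member score closely (r = 0.93), and Donson did not (r = -0.52).

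Among polymerases 7 of 12 were above 0 (median 0.02), with Pola1 at 0.25 ± 0.17, the primase subunit Prim1 at 0.16 ± 0.19, Pold1 at 0.16 ± 0.20 and Pold4 at -0.28 ± 0.25. Pola1 and Prim1, which belong to the same priming complex, had r = 0.91 and 0.88 with the member score, against -0.26 for Pold1 and -0.11 for Pold4 of the delta polymerase. Clamp loading and lagging strand genes had 6 of 11 above 0 (median 0.03), with the loader subunits Rfc4 at 0.17 ± 0.34 and Rfc5 at -0.12 ± 0.20, and the single-strand binding subunits Rpa2 at 0.13 ± 0.13 and Rpa3 at -0.12 ± 0.57. Nucleotide supply had 7 of 9 above 0 (median 0.09), with the pyrimidine enzymes Umps at 0.33 ± 0.17 and Cad at 0.24 ± 0.13 and the dUTPase gene Dut at 0.11 ± 0.14 after Ctps. Dut had r = 0.82 with the member score, and Ctps, Umps and Cad had 0.35, 0.44 and 0.47.

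E2F and RB regulators had 7 of 14 above 0 (median 0.05), with the repressors E2f6 at 0.24 ± 0.17 and E2f8 at 0.20 ± 0.36, the E2F partner Tfdp2 at -0.22 ± 0.63 and Lin54, of the DREAM complex, at 0.22 ± 0.11. Licensing degradation genes had 8 of 11 above 0 (median 0.04), with Fbxo5, an inhibitor of the anaphase-promoting complex, at 0.18 ± 0.32, its coactivator Fzr1 at -0.095 ± 0.29, and the ubiquitin ligase subunits Cul1 at 0.14 ± 0.17 and Skp2 at 0.13 ± 0.20. E2f8 and Fbxo5 were the closest of these 8 to the member score, at r = 0.86 and 0.83.

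S phase cyclins and kinases had 7 of 8 above 0 (median 0.22), with the cyclin genes Ccne2 at 0.37 ± 0.37 and Ccna2 at 0.28 ± 0.30, the phosphatase gene Cdc25a at 0.23 ± 0.23 and the checkpoint kinase Chek1 at 0.23 ± 0.15. Mitosis genes had 20 of 21 above 0 (median 0.21), with the survivin gene Birc5 at 0.33 ± 0.29, the topoisomerase Top2a at 0.32 ± 0.29, Ccnb1 at 0.31 ± 0.41 and the kinesin Kif11 at 0.30 ± 0.29. The mitosis score spread more widely than that of the members, from -0.50 on TCL1 array d to 0.61 on ROR1xTCL1 array a. On the latter array 14 of the 21 genes were highest, so the 20 above 0 are not separate observations. On ROR1xTCL1 array b the mitosis score was -0.43 where the members were at -0.06, so the order of the arrays was close but not identical. Quiescence genes had 6 of 12 above 0 (median 0.00) and r = 0.20 with the member score. Among them the CDK inhibitor genes Cdkn2c and Cdkn1a differed by 0.73 ± 0.45 and 0.19 ± 0.25, Tob2, an antiproliferative protein, by -0.21 ± 0.12 and the transcription factor Klf2 by -0.15 ± 0.24.

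**Figure D4:**
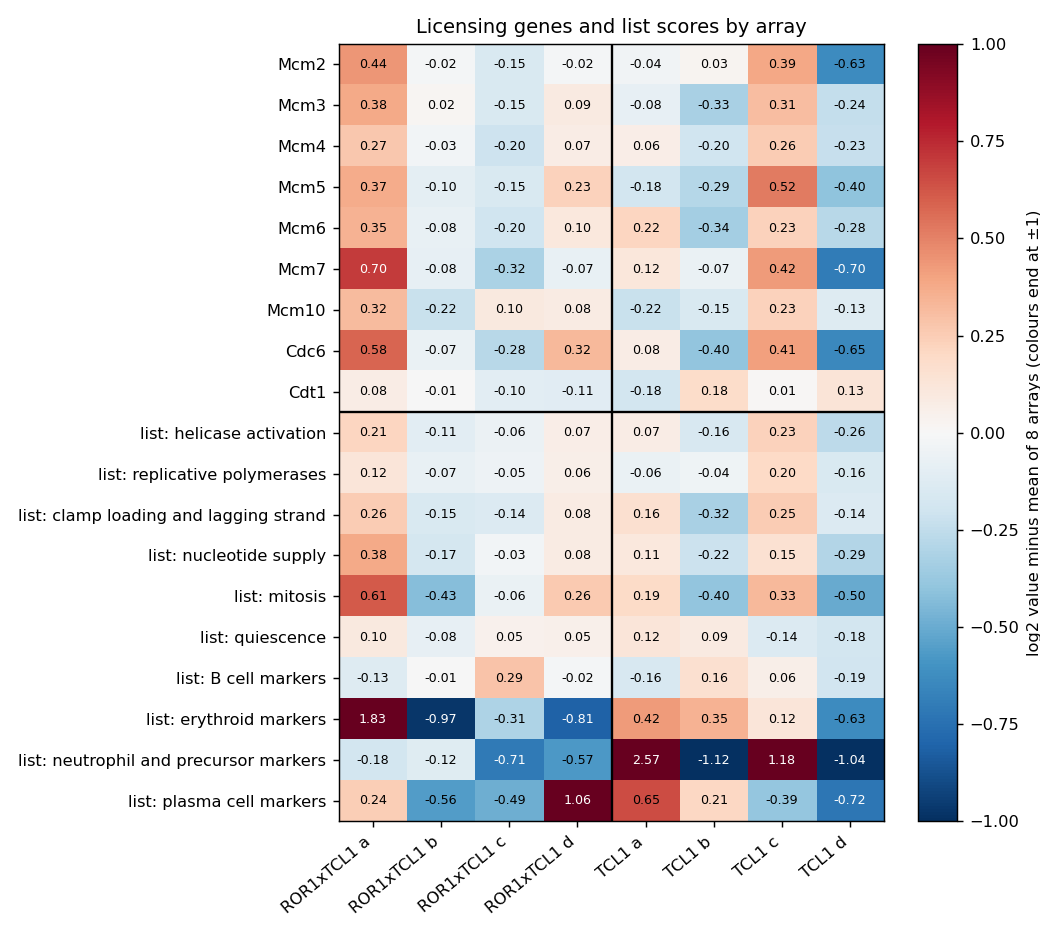
Log2 value minus the mean of the 8 arrays for each gene (rows above the line), and mean of such values for gene lists (rows below it), on ROR1xTCL1 arrays (left) and TCL1 arrays (right). ROR1xTCL1 array a and TCL1 array c are high from Mcm2 to Cdc6 and in the replication and mitosis lists, while erythroid genes peak on ROR1xTCL1 array a (1.83) and neutrophil genes on TCL1 arrays a (2.57) and c (1.18).

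Markers of other cells moved on the arrays that led. All 13 measured erythroid markers of 17 listed were highest on ROR1xTCL1 array a. Their mean log2 level was 6.39 to 9.20 over ROR1xTCL1 arrays and 6.74 to 7.79 over TCL1 arrays. The erythroid score had r = 0.60 and rho = 0.36 with the member score, and r = 0.19 without ROR1xTCL1 array a. Without that array r was 0.82 for the mitosis list and 0.95 for helicase activation. The part of erythroid cells in these values was not tested. All 16 measured neutrophil and precursor markers of 17 were highest on TCL1 array a, where the member score was -0.03, and TCL1 array c came next. Their mean log2 level was 5.28 to 5.87 over ROR1xTCL1 arrays and 4.87 to 8.55 over TCL1 arrays. The neutrophil score had r = 0.39 and rho = 0.67 with the member score, and r = 0.55 without ROR1xTCL1 array a. All 16 had a lower mean in ROR1xTCL1 (median difference -0.85), where 45.9% of all genes lay above 0. Of the 16, 1 had an unadjusted p under 0.05, against 1.63% of all genes, and since the 16 move together on TCL1 array a they are not separate observations.

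Monocyte and macrophage markers had r = 0.55 with the member score, natural killer markers 0.35, plasma cell markers 0.33, T cell markers -0.13, B cell markers -0.13 and dendritic cell markers -0.21. Without the 2 arrays farthest in the member score r was 0.79 for T cell, 0.77 for plasma cell, 0.73 for natural killer and -0.07 for erythroid markers. Of 93 marker genes measured 0 passed between genotypes, against 0% of all genes, so this does not show that the groups hold the same cells. The part of other cells in the values of the licensing genes was not tested. ROR1xTCL1 array a (most erythroid signal) and TCL1 array a (most neutrophil signal) were then both left out. This choice was made after seeing the data. The median r over all 36 pairs was 0.76, against 0.81 with all arrays. TCL1 array c, with the next highest neutrophil score (1.18), stayed in, so this does not test the part of other cells.

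**Figure D5:**
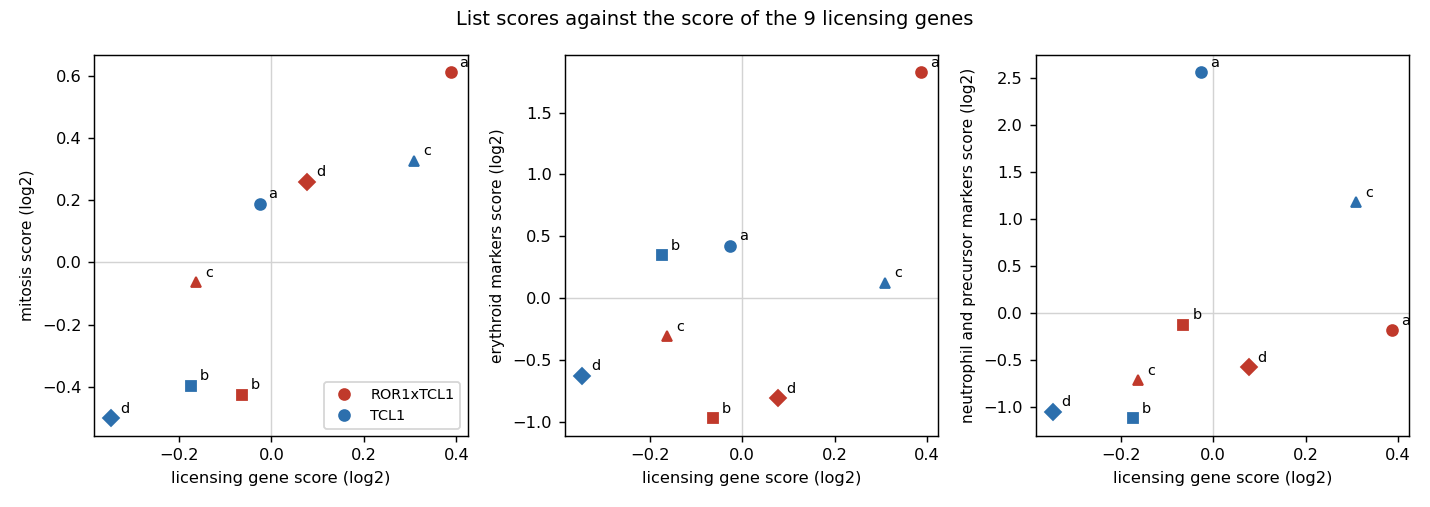
Scores of the mitosis, erythroid and neutrophil lists (log2, vertical axes) against the score of the 9 licensing genes (log2, horizontal axes), 1 point per array with its letter, ROR1xTCL1 in red and TCL1 in blue. The mitosis score climbs with the licensing score (r = 0.89), the erythroid score is set by ROR1xTCL1 array a (1.83), and the neutrophil score by TCL1 array a (2.57).

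The profiles nearest to the mean of the 9 members were then ranked among the 8202 other genes at or above the median level. Ctla4, an inhibitory receptor best known on T cells, came first at r = 0.98. It read 10.40, 9.79, 9.65 and 9.89 on ROR1xTCL1 arrays a to d, against 9.82, 9.55, 10.28 and 9.50 on TCL1 arrays a to d, and ranked the 8 arrays as the member score did (rho = 1.0). By means of probe sets its r was 0.96. The T cell list, which does not hold Ctla4, had r = -0.13 with the member score over the same 8 arrays. Without the 2 arrays farthest in the member score it had r = 0.79. Which cells gave the Ctla4 signal was not tested.

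Next came genes of chromosome condensation and division. The condensin subunit Ncapd2 had r = 0.98 and rho = 1.0, Aspm, a spindle pole protein, r = 0.97 and rho = 1.0, and Ect2, an activator of cytokinesis, r = 0.95. The replication repair genes Mms22l and Blm both had r = 0.95, the actin regulator Diaph3 0.94, the nucleosome-binding protein gene Hmgn3 0.94 and the condensin gene Ncapg2 0.93. The list also held genes with no known place in replication. Gstt1, a glutathione transferase, had r = 0.95 and read 9.10, 6.58, 5.26 and 6.84 in ROR1xTCL1, against 5.92, 5.16, 8.61 and 5.43 in TCL1. That spans 3.94 log2 units, far more than any licensing gene. The GTPase gene Tgtp1 had r = 0.94 and the fatty acid desaturase Fads1 0.94.

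The most opposed profiles were Slf2 (r = -0.94), Qprt, of NAD synthesis (-0.93), the chaperone Hspa14 (-0.92) and the integrin Itga6 (-0.92). Itga6 read 5.64, 6.32, 6.39 and 6.21 in ROR1xTCL1, against 6.23, 6.16, 5.47 and 6.60 in TCL1, lowest on the arrays where the helicase was highest. By means of probe sets r was -0.69 for Qprt, -0.86 for Hspa14 and -0.80 for Itga6. Of the 8202 genes 1.88% had r of at least 0.8 with the members, against 31 of 118 ranked genes of the pathway lists. The ranked genes were picked for likeness over 8 arrays, so their r describes these arrays only.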

How the data were processed

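RNA from the leukemias of 8 mice was hybridised to exon arrays (Affymetrix Mouse Exon 1.0 ST), 1 per mouse. Per the labels, the authors made log2 RMA values per probe set with the package oligo, and the submitters' processing notes name R 2.15.1. The deposited gene table holds values taken as log2 from their range, and how genes were summarised there is not stated in the sources used here. All log2 differences at gene level rest on this reading.

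After 4 rows of that table named by a number were left out and 72 repeated names averaged, 16419 genes were left. RefSeq (GRCm38.p6) held 14742 of them as symbols and 1438 as synonyms, while 239 were used under their own name. The 321091 probe sets with 1 gene symbol were averaged per gene as a second measure.

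ROR1xTCL1 was compared with TCL1 by the moderated test of limma 3.58.1 (R 4.3.3, 2-sided), and p-values were adjusted by Benjamini-Hochberg over every gene or probe set tested. Mice are the replicates. The test was checked on simulated data. Correlations used all 40320 orderings of the 8 arrays. Python 3.11.15 was used. The number of arrays limits precision, with a median half-width of the 95% interval of 0.34 log2 units per gene. Pair tests were planned over 45 pairs and made over 36 in the gene table, where Pcna has no row matched.

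Genes were named by a rule. It takes all members, the 4 genes of largest absolute difference in each of the 10 pathway lists, and the 12 nearest and 4 most opposed profiles. Mcm8, Ddx3y, B cell genes and single probe sets were named outside it, after their values were seen. The members and lists were chosen with earlier results of these data known.

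Alternatives were the mean or median of probe sets, trend and robust estimation, a filter on dim genes, renewed quantile normalization, the highest of repeated rows, a replicate block and leaving out each array.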

Additional observations from a re-analysis of the deposited data

How the results depend on the processing

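Over 148 values from alternatives for the 10 genes, the difference between genotypes kept its sign in 141 and passed the threshold in none (limma, smallest adjusted p = 0.9992). The 7 changes of sign came from leaving out 1 array. Without ROR1xTCL1 array a, Mcm4 was at -0.024, Mcm6 at -0.016 and Mcm7 at -0.10. Without TCL1 array d, Mcm2 was at -0.063, Mcm4 at -0.011 and Mcm7 at -0.099, and without TCL1 array b Mcm6 was at -0.012. These genes reached 0.28 (Mcm2), 0.15 (Mcm4), 0.18 (Mcm6) and 0.27 (Mcm7) without TCL1 array c. The smallest unadjusted p was 0.0424 (limma), for Mcm5 without TCL1 array c. Over all genes 0 passed under every alternative run. The median difference of the 9 genes was 0.13, and 0.15 both from means of probe sets and with those means and the replicate block, which changed no call. Same-numbered samples of both groups deviated from their group means with correlations of 0.23, -0.0061, 0.22 and 0.11 over 22378 genes, and 1 of the 4 did not correlate best with its own number, so the numbers were not taken as pairs. Leaving out each array gave 0.00017 to 0.27. The median r over the 36 pairs was 0.81, with 0.74 to 0.85 on leaving out each array, 0.73 from medians and 0.90 from means of probe sets. The alternative without ROR1xTCL1 array a and TCL1 array a was chosen after seeing the data. No sample stood apart within its group of 4 for any of the 10 genes by Dixon's test (20 groups tested). With 4 values only a gap of about 0.83 of the range is flagged, so an array can weigh on the results unflagged. Depth is not defined for arrays, and values near the first quartile of an array are not shown to exceed background.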
